A study of Mus musculus with 4 samples.

Results

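Genes of the cytoskeleton and its motor proteins were taken as all probe sets whose single gene symbol begins with a name of that group: the beta- and gamma-actins (Actb, Actg1), alpha-actinins, actin-related proteins, Arp2/3 subunits, cofilins, beta-thymosins, tubulins and gamma-tubulin complex proteins, neurofilaments, microtubule-associated proteins of the Map1 group and tau (Mapt), kinesins, myosins, dynein and dynactin. The rule found 107 of 12488 probe sets. Of these, 6 are array controls for beta-actin, and the remaining 101 read 76 genes. The symbol rule also took Cflar, a regulator of cell death, and Actr6, a subunit of a chromatin remodelling complex, which are not parts of the cytoskeleton. The measurements are Affymetrix array intensities of total RNA from the CA1 field of the hippocampus of young male C57BL/6J mice. Per the labels, all mice were placed in a context new to them 2 h before training and then, in a group called shock alone, received 3 foot shocks of 0.5 mA, each lasting 1 s and 2 min apart. They stayed in the chamber afterwards, and RNA was extracted 1, 2, 4 or 6 h from the final shock. Each time has 1 array, the number of animals behind it is not stated in the labels, and unshocked animals were not analysed here, so each time is set against the other times and no difference has a replicate check or a p-value.

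Neurons keep their shape and move their cargo with 3 filament systems. Actin filaments fill dendritic spines, where the Arp2/3 complex branches them, cofilin cuts them and thymosins hold actin monomers in reserve, and spine actin is remodelled when synapses change strength. Microtubules, built of alpha- and beta-tubulin and nucleated by gamma-tubulin, form the tracks of axons and dendrites, with tau and the Map1 proteins bound along them and neurofilaments beside them. Kinesins carry cargo mostly toward the growing microtubule end and dynein, with its partner dynactin, toward the other, while myosins move along actin.

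A pair of short motifs known for activity-regulated transcription in neurons was looked for in the 250 bases before the start of each gene, using RefSeq sequences of the GRCm38.p6 build, which hold 60 of the 76 genes. TGACGTCA, the site bound by the factor CREB, was found before Dctn3, Kif5c and Tubb2a, in 5% of the 60 genes against 1.77% of the 27025 genes in the table. The CArG box, the site of the serum response factor SRF, was found before Actg1, Arpc4 and Myo1e, also 5% against 1.62%. Both motifs read the same on either strand, and no gene of the group held both. The stretches printed here, with the motif in capitals, were chosen to cover Tubb2a and a gene with nearly flat values (Actg1). Tubb2a had the widest range of any member on a dim probe set, at 3.21-fold, while its bright probe set spanned 1.13-fold. Dctn3 and Arpc4 are the other genes with a motif that were above the detection floor on all 4 arrays.
Tubb2a, minus strand, chr13:34078030-34078097: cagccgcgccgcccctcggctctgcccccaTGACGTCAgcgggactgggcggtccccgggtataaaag
Dctn3, minus strand, chr4:41723207-41723274: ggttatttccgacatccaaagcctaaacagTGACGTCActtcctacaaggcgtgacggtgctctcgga
Actg1, minus strand, chr11:120348546-120348615: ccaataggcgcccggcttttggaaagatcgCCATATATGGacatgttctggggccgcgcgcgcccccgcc
Arpc4, plus strand, chr6:113377863-113377902: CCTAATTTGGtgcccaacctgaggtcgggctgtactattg
The motif lies 59 to 52 bases before the annotated start in Tubb2a, 81 to 74 bases before it in Dctn3, 90 to 81 bases before it in Actg1 and 250 to 241 bases before it in Arpc4. A match is a stretch of letters and not a measured binding site. Myo1e and Kif5c were below the detection floor on all 4 arrays.

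The floor was an intensity of 100.8, the 40th percentile of all values, and a value below it is read only as a bound. Of the 101 probe sets, 68 lay above the floor on all 4 arrays, 16 on some and 17 on none. The array at 2 h had the highest ratio of 3' to 5' actin control probe sets, a sign of RNA or labelling quality, at 2.70, against 1.84, 1.79 and 1.74 at 1, 4 and 6 h. The same ratio for Gapdh was 4.82 at 2 h, against 3.98, 3.85 and 3.24. Foreign control transcripts added to the samples or the hybridisation mix were read by 9 bright probe sets, of which 9 were highest at 2 h and 8 lowest at 6 h. The array at 6 h held choroid plexus transcripts, with a summed intensity of 7724 over 5 markers on the array of 8 listed, against 1673, 1313 and 1908 at 1, 2 and 4 h. Markers of CA1 pyramidal neurons summed to 10808, 11604, 12902 and 12494 over 8 markers on the array of 10 listed, and none of the 8 was below the floor on all arrays. In a tissue sample, fewer cells of a type and less RNA per cell cannot be told apart.

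Most cytoskeleton genes read at similar levels at all 4 times. Among the 68 probe sets, the highest of the 4 arrays exceeded the lowest by a median of 1.29-fold, against 1.32-fold over all 6442 probe sets above the floor. A range of at least 1.5-fold was seen in 12 of the 68, or 17.6%, against 27.9% of all probe sets. The members were brighter, with a median intensity of 935 against 537, and bright probe sets vary less. At a mean intensity of at least 500 the share was 4 of 48 members, or 8.33%, against 12.4% of all, and the median range was 1.24-fold in both.

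**Figure D1:**
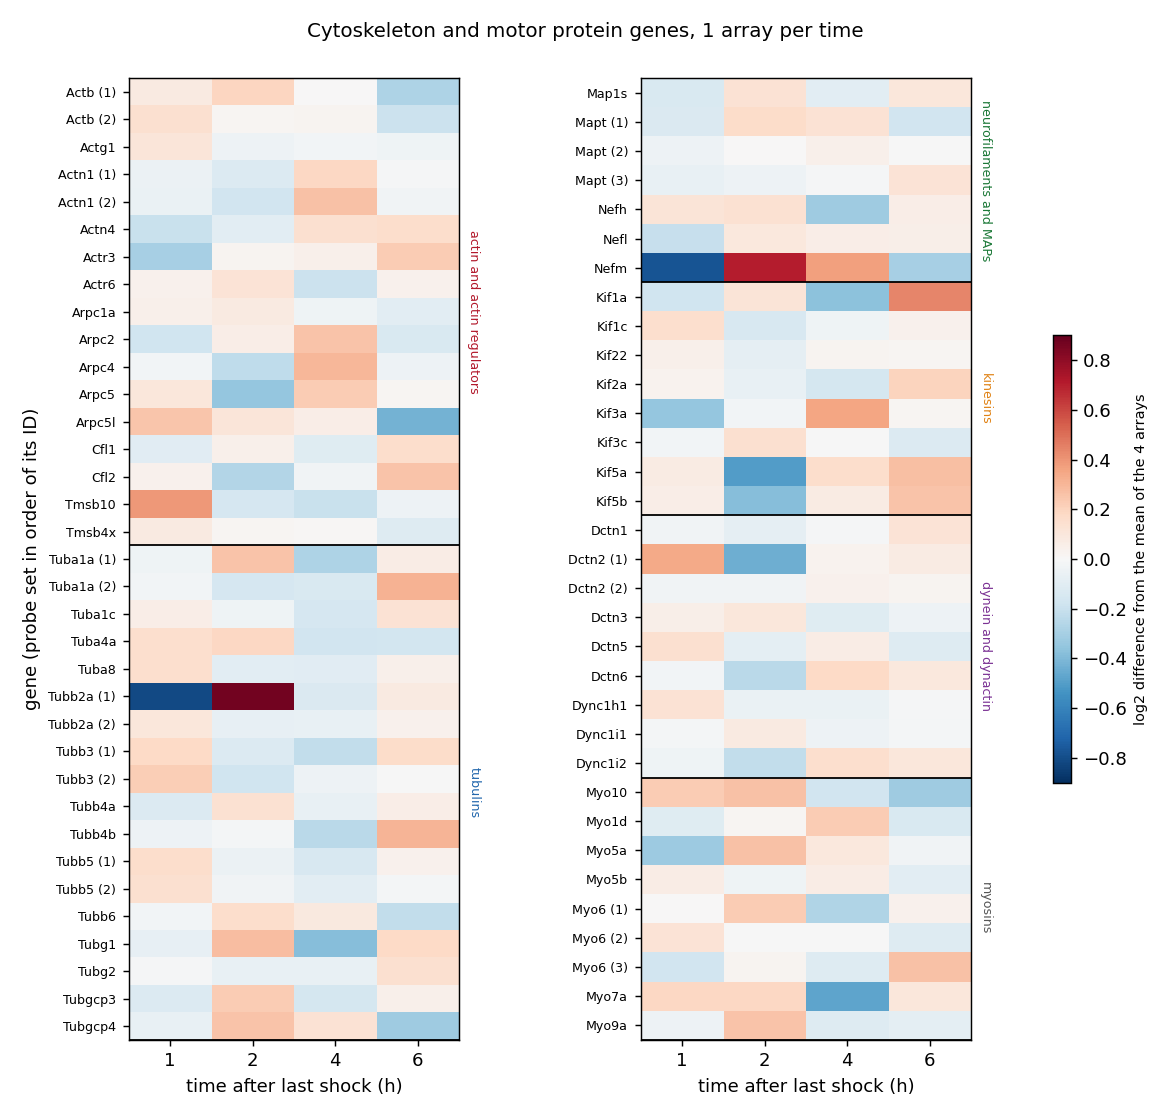
Heat map of the 68 member probe sets above the floor on all 4 arrays, in rows grouped by family, with the 4 times after the last shock in columns and 1 array per time. Colour gives the log2 difference of each array from the mean of the 4. Most rows are pale, and the first (dim) Tubb2a probe set and Nefm stand out as low at 1 h and high at 2 h.

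Only 1 of the 68 member probe sets stood apart, a count that leaves out the 6 actin controls. Standing apart means that 1 array differed from all 3 others in the same direction by 1.5-fold or more. The member was a probe set of Tubb2a, a beta-tubulin, which was both low at 1 h and high at 2 h. At 1 h, 1 member was lower and 0 were higher, where 0.931% and 0.574% of all probe sets were. At 2 h, 1 was higher and 0 lower, where 1.18% and 1.12% of all were. At 4 h no member was higher or lower, against 0.202% and 1.01% of all, and at 6 h none was, against 0.326% and 1.16%. Nearest to the limit from outside were Kif5a at 2 h and Myo7a at 4 h, each 1.49-fold below the next lowest array. Both directions together gave 2 calls on 1 probe set, so the shares say little about the group.

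Set against 1 h, members again differed in small numbers. At 2 h, 4 of 71 probe sets were at least 1.5-fold higher than at 1 h (Cflar, Tubb2a, Nefm and Myo5a), where 5.59% of all were, and 1 was lower (Dctn2), where 4.84% of all were. At 4 h, 3 of 70 were higher (Kif3a, Tubb2a and Nefm), against 3.38% of all, and 2 were lower (Myo7a and Tmsb10), against 5.33%. At 6 h, 2 of 68 were higher (Tubb2a and Kif1a), against 3.76% of all, and 1 was lower (Arpc5l), against 5.82%. These 3 comparisons share the 1 h array. No member was higher at each later time with a span of 1.5-fold, against 0.792% of all. With the same span, 1 member, Arpc5l, was lower at each later time, against 1.61%.

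The plot of family medians gives the level of each family over time, and differences between families were not tested. Each median is taken over the genes of a family whose mean intensity lay above the floor, as the log2 difference of a time from the mean of the other 3 arrays. Over all 62 such member genes the medians were −0.03, 0.03, −0.03 and 0.02 at 1, 2, 4 and 6 h, and over all 5671 genes they were 0.01, 0.02, 0.00 and −0.01.

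**Figure D2:**
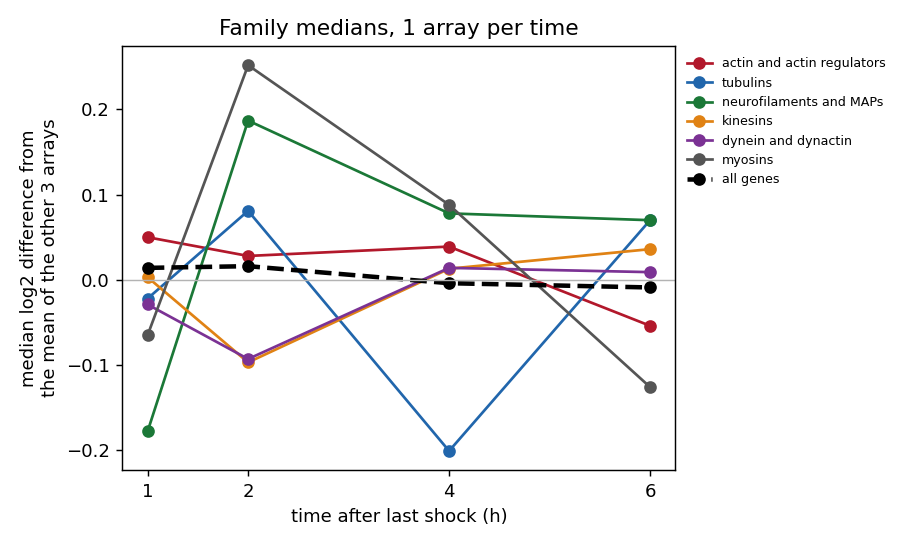
Median log2 difference of each time from the mean of the other 3 arrays (vertical axis) against hours after the last shock (horizontal axis), for the 6 families and, dashed, for all genes. Points are medians over genes on 1 array per time. Tubulins are lowest at 4 h at −0.20, and myosins and the neurofilament and MAP genes are highest at 2 h at 0.25 and 0.19.

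Beta-actin, the main actin of non-muscle cells, was lowest at 6 h on both of its gene probe sets. Actb read 4224, 4563, 3999 and 3284 at 1, 2, 4 and 6 h on the first and 2718, 2487, 2494 and 2149 on the second. The 6 h value was thus 0.78 and 0.79 of that at 1 h. The 3 control probe sets along the same transcript gave 0.76 at the 3' end, 0.77 in the middle and 0.80 at the 5' end. At 2 h these probe sets parted: relative to 1 h the 3' control read 1.01, the middle 0.80 and the 5' control 0.69, on the array with the actin ratio of 2.70. The 3 remaining controls, which carry the opposite strand, were dim, between 118 and 621 on all arrays. The added control transcripts read 0.73 to 1.13 of their 1 h value at 6 h. The lowest of their probe sets read 0.73 and the next lowest 0.81, so the Actb values lay between these and below the rest. The array with the lowest Actb was also the one with the choroid plexus sum of 7724, and the part of either in the result was not tested.

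**Figure D3:**
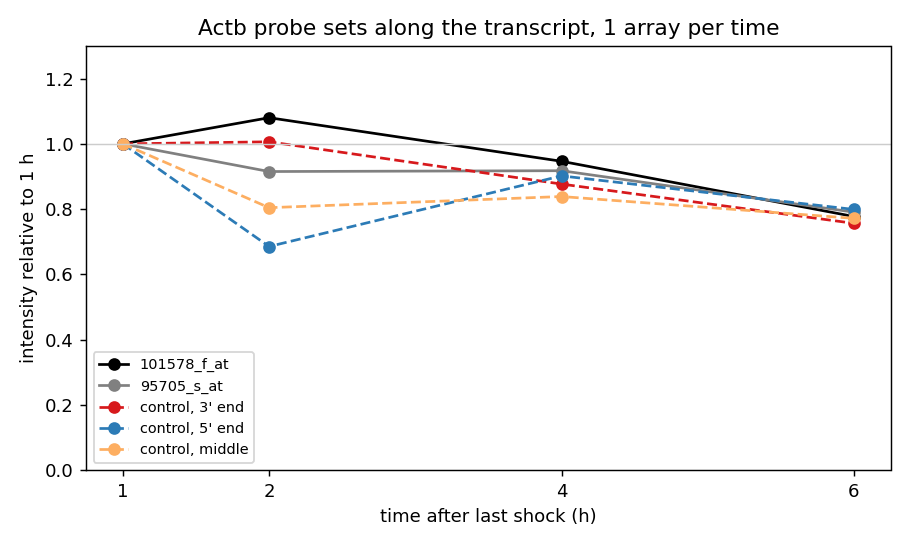
Intensity of Actb relative to 1 h (vertical axis) against hours after the last shock, for the 2 gene probe sets (solid) and 3 control probe sets (dashed), 1 array per time. All 5 lie between 0.76 and 0.80 at 6 h, and at 2 h they spread from 0.69 at the 5' end to 1.08 for the first gene probe set.

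Gamma-actin, the second cytoplasmic actin, was nearly flat. Actg1 read 19408, 17454, 17706 and 17533 at 1, 2, 4 and 6 h, a range of 1.11-fold and the smallest among genes of the actin group. Thymosin beta-4 (Tmsb4x), the main binder of actin monomers, was also even, at 23932, 22882, 22792 and 20879. Thymosin beta-10 (Tmsb10), its relative, stood higher at 1 h, at 8317, than later, at 5716, 5513 and 6151. The 1 h value was 1.35-fold above the next highest array. Endothelial and mural markers (9 on the array of 10 listed, with Tek below the floor throughout) summed to 1698 at 1 h, against 1292, 1413 and 1181 later. Of 5 meningeal fibroblast markers, Dcn read 5844 at 1 h, against 3395, 2523 and 2915, while the other 4, with Col3a1 below the floor throughout, summed to 2650, against 2772, 2610 and 2372. Their part in the Tmsb10 value was not tested.

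Subunits of the Arp2/3 complex, which starts new actin branches, did not share 1 course. Arpc2 read 9882, 11672, 13357 and 10200, Arpc4 1183, 1026, 1475 and 1165, and Arpc5 930, 680, 1014 and 876 at 1, 2, 4 and 6 h. These 3 were highest at 4 h, and Arpc4 and Arpc5 were lowest at 2 h. Actr3, the Arp3 subunit, was lowest at 1 h and highest at 6 h, at 4503, 5630, 5713 and 6485. Arpc1a stayed within 1.13-fold, at 2089, 2141, 1967 and 1894. Arpc5l, a variant of Arpc5, had the 1 member course that ran downward throughout with a span of at least 1.5-fold. It read 642, 583, 563 and 401, with a 6 h value 1.60-fold below that of 1 h. Its second probe set was below the floor on all 4 arrays.

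Cofilins, which sever actin filaments, were highest at 6 h. Cfl1, the main neuronal form, read 5111, 5657, 5080 and 6124 at 1, 2, 4 and 6 h, and Cfl2, better known from muscle, read 349, 284, 333 and 407. The second Cfl2 probe set was below the floor throughout. Alpha-actinins cross-link actin filaments. Actn1 was highest at 4 h and lowest at 2 h on both probe sets above the floor, at 1664, 1584, 1971 and 1718 and at 196, 181, 246 and 200. Another Actn1 probe set lay above the floor at 2 h and 6 h alone, at 176 and 137. Actn4 read 504, 541, 639 and 645. Actn2, of muscle and dendritic spines, was below the floor on all arrays, and both probe sets of the muscle form Actn3 were below it at 1 h and 4 h. Over the 16 genes of the actin group the medians were 0.05, 0.03, 0.04 and −0.05 at 1, 2, 4 and 6 h. Over the alternatives they ran from −0.05 to 0.06 at 1 h, −0.05 to 0.06 at 2 h, 0.02 to 0.09 at 4 h and −0.12 to 0.02 at 6 h, so that only the one at 4 h kept its sign. The medians at 2 h and 6 h turned sign with arrays brought to a common median, at −0.05 and 0.02. Leaving out Cflar and Actr6, which are not parts of the cytoskeleton, also turned the one at 2 h, to −0.02.

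Tubulins stood lower at 4 h. Of 18 tubulin and gamma-tubulin complex probe sets above the floor, 11 were lowest at 4 h, or 61.1%, against 24.3% of all probe sets, and 0 were highest there, against 23.1%. The differences were small, with a median at 4 h of −0.20 over 14 genes, 2 of them higher and 12 lower than the mean of the other times. This median lay between −0.21 and −0.15 under every alternative scaling, floor, probe set choice, summary and left-out array. The count depended on scaling more than the median did, with 5 of 18 lowest at 4 h when arrays were brought to a common median. With 1 array left out it was 11 to 14 of 18. Several of the 18 may read related tubulins together and some share a gene, so they are not separate readings. With 1 probe set per gene, 10 of 14 were lowest at 4 h.

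**Figure D4:**
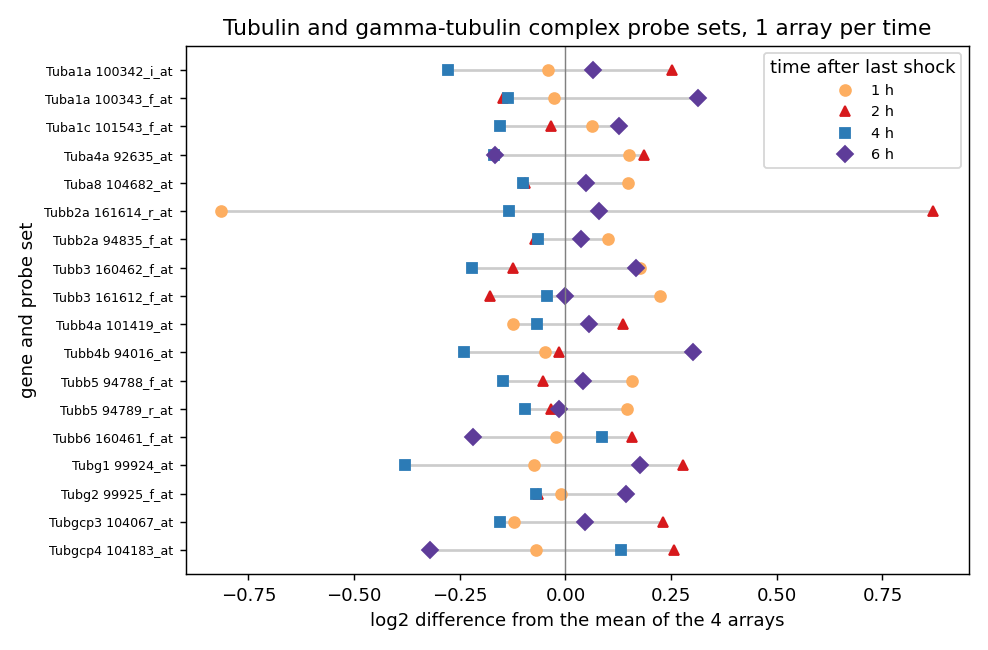
Log2 difference from the mean of the 4 arrays (horizontal axis) for the 18 tubulin and gamma-tubulin complex probe sets above the floor (rows), with a marker for each time and a grey line over the range, 1 array per time. The 4 h squares are leftmost in 11 rows, and the first (dim) Tubb2a probe set has the widest range.

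Alpha-tubulins were among the brightest members. Tuba1a, the main alpha-tubulin of neurons, read 29991, 36773, 25463 and 32267 at 1, 2, 4 and 6 h on the first probe set and 12578, 11563, 11660 and 15924 on the second. The first was lowest at 4 h and the second at 2 h, with 4 h next. Tuba1c read 22317, 20858, 19212 and 23333, Tuba4a 2428, 2487, 1945 and 1948, and Tuba8 801, 676, 674 and 747, all lowest at 4 h. Another Tuba4a probe set was below the floor on all arrays. The Tuba1c probe set and the second of Tuba1a carry a name suffix (f) that marks probes shared among related sequences, so they may read several alpha-tubulins together.

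Beta-tubulins went the same way in part. Tubb3, the neuron-specific form, read 9342, 7585, 7090 and 9272 on the first probe set and 3483, 2636, 2891 and 2978 on the second, both highest at 1 h. Tubb5, found in most cell types, had 9218, 7960, 7455 and 8503 and, on a second probe set, 5860, 5170, 4956 and 5237, both highest at 1 h and lowest at 4 h. Tubb4b, also widespread, read 164, 168, 144 and 210, lowest at 4 h and highest at 6 h. Tubb4a, abundant in neurons and oligodendrocytes, differed in reading lowest at 1 h, at 4130, 4946, 4295 and 4681, and Tubb6 was lowest at 6 h, at 356, 404, 384 and 311. Both Tubb3 probe sets, the first of Tubb5 and that of Tubb6 also carry the suffix f, so they may read several beta-tubulins together.

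The Tubb2a probe sets disagreed with each other. The dim one read 109, 350, 175 and 202 at 1, 2, 4 and 6 h, a range of 3.21-fold, the widest of any member above the floor. The bright one read 16895, 14982, 15061 and 16159, a range of 1.13-fold, and was lowest at 2 h, where the dim one was highest. The suffix r marks a probe set for which some probe selection rules were dropped, and f one shared among relatives. The dim probe set's 1 h value lay just above the floor of 100.8. The related pseudogene Tubb2a-ps2 was above the floor only at 2 h, at 106. The course of the dim probe set was thus not shared by the other probe set of the gene. Its peak fell on the 2 h array with its actin ratio of 2.70, whose part was not tested.

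Gamma-tubulins, which seed microtubules, included the member with the second widest tubulin range. Tubg1 read 535, 683, 433 and 637, highest at 2 h and lowest at 4 h with a range of 1.58-fold. Its close relative Tubg2 read 584, 562, 560 and 649 on a probe set with the suffix f. The gamma-tubulin complex gene Tubgcp3 read 289, 369, 283 and 325. Tubgcp4 read 283, 355, 326 and 238, highest at 2 h like Tubgcp3 but lowest at 6 h, and its second probe set was below the floor on all arrays.

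Neurofilaments and microtubule-associated proteins stood high at 2 h and low at 1 h in their medians. Of 7 probe sets, 5 were highest at 2 h, or 71.4%, against 28.7% of all probe sets. At 1 h, 5 were lowest, against 22.8% of all. Mapt alone holds 3 of the 7. With 1 probe set per gene, 5 of 5 were highest at 2 h and 3 of 5 lowest at 1 h. Except for Nefm, these genes exceeded the next highest array at 2 h by only 1.02-fold to 1.03-fold. The median over 5 genes was 0.19 at 2 h and −0.18 at 1 h, with all 5 above the other times at 2 h, and it was 0.08 at 4 h and 0.07 at 6 h. With arrays brought to a common median, 1 of 7 was highest at 2 h, and the median at 2 h was between 0.10 and 0.33 over all alternatives. The 2 h array was also the one on which all 9 added control probe sets were highest, whose part was not tested.

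Nefm, the medium neurofilament subunit, had the clearest course of the family. Nefm read 167, 466, 368 and 232 at 1, 2, 4 and 6 h, a range of 2.79-fold, highest at 2 h and lower at each later time. At 2 h it was 1.27-fold above the next highest array, and at 1 h it was 1.39-fold below the next lowest. The light subunit Nefl read 637, 786, 766 and 762, also lowest at 1 h, and the heavy subunit Nefh read 883, 898, 654 and 851, lowest at 4 h. The array reads each of the 3 subunits with 1 probe set. Nefm was below 500 on all arrays, and its highest value came from the array with the actin ratio of 2.70, whose part was not tested.

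Tau (Mapt), the axonal microtubule-binding protein, was even across 3 probe sets. The first read 5666, 6960, 6788 and 5511, the second 3851, 3979, 4093 and 3954, and the last 3940, 4010, 4096 and 4497 at 1, 2, 4 and 6 h. They were highest at 2 h, 4 h and 6 h in turn, so no peak was common to them, and their ranges were 1.26-fold, 1.06-fold and 1.14-fold. Map1s, a short member of the Map1 group, read 1283, 1538, 1315 and 1512. Map1b, the form best known from growing axons, was below the floor on all 4 arrays.

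**Figure D5:**
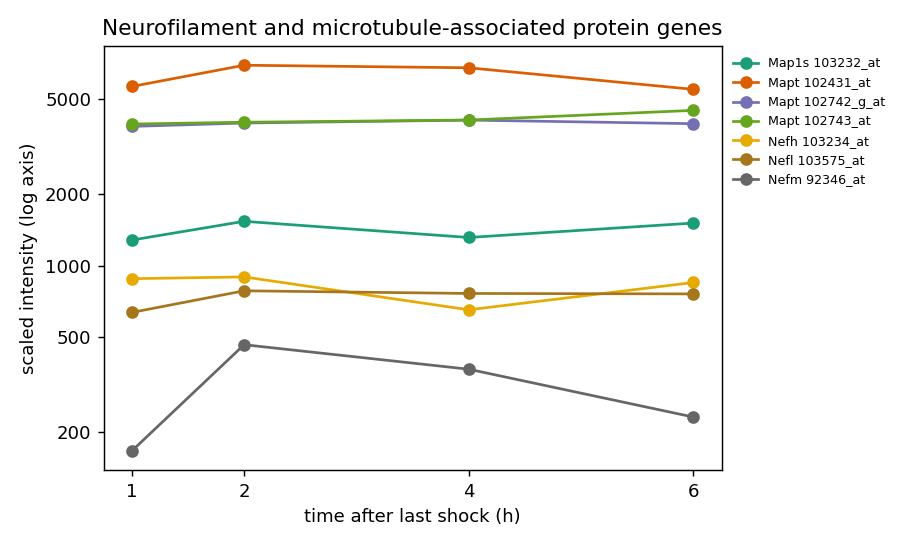
Scaled intensity (vertical log axis) against hours after the last shock for the 7 neurofilament and microtubule-associated protein probe sets above the floor, 1 array per time. Nefm lies at 167 at 1 h and 466 at 2 h, while the 3 Mapt lines stay within 1.26-fold.

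Kinesins were often dim: of 23 probe sets, 8 were above the floor on all arrays, 7 on some and 8 on none. Mitotic kinesins, which act on the spindle of dividing cells, were a part of the dim set. Kif11 and Kif4 were below the floor throughout, and Kif2c, Kif23 and Kif20a were above it on 1 array each. Kif22, another of that kind, read 549, 504, 541 and 538, a range of 1.09-fold. Kif20a at 4 h was at least 2.47-fold above its other times, at 249, but its second probe set was below the floor on all arrays. Outside the mitotic kinesins, Kif16b was below the floor throughout, and Kif1b and Kif9 were above it on 1 array each.

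The transport kinesins held the widest ranges in the family. Kif5a and Kif5b encode heavy chains of conventional kinesin, the anterograde motor of axons. Kif5a read 215, 144, 228 and 246 and Kif5b 1383, 1018, 1397 and 1588 at 1, 2, 4 and 6 h. Both were lowest at 2 h and highest at 6 h, by 1.71-fold and 1.56-fold. The part of the actin ratio of 2.70 on the 2 h array in these low values was not tested. The second probe set of Kif5a was above the floor at 1 h alone, at 101, so its later times cannot be ordered. The remaining heavy chain gene, Kif5c, was below the floor throughout.

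Kif1a, which carries synaptic vesicle precursors, read 186, 228, 163 and 286 with a 6 h value 1.54-fold above that of 1 h. Kif3a, of the heterotrimeric kinesin-2 motor, read 121, 151, 197 and 156, highest at 4 h and lowest at 1 h. Its partner Kif3b was above the floor at 2 h and 4 h, at 194 and 103. The alternative partner Kif3c read 957, 1077, 973 and 896, and Kif2a, which takes microtubules apart, read 770, 722, 675 and 866. Kif1c read 420, 343, 369 and 389. In all, 4 of 8 kinesin probe sets were lowest at 2 h, against 26.7% of all probe sets, and the medians over 10 genes were 0.00, −0.10, 0.01 and 0.04 at 1, 2, 4 and 6 h. The median at 2 h was 0.02 with the floor at the 20th percentile.

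Dynein and dynactin genes varied least. Their 9 probe sets above the floor had a median range of 1.16-fold, against 1.32-fold for all probe sets. Most of the 9 were bright, averaging over 500. Among all probe sets that bright the median range was 1.24-fold, which is the closer comparison. Dync1h1, the heavy chain that holds the motor, read 3733, 3269, 3264 and 3378 at 1, 2, 4 and 6 h. The intermediate chains, which bind dynactin, read 3463, 3702, 3398 and 3465 for Dync1i1 and 587, 518, 670 and 649 for Dync1i2. Dctn1, the large dynactin subunit that grips microtubules, read 3820, 3688, 3861 and 4244.

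Among the other dynactin subunits, Dctn3 read 2915, 3008, 2602 and 2718, Dctn5 read 2224, 1895, 2114 and 1858, and Dctn6 read 1202, 1034, 1383 and 1304. Dctn2, known as dynamitin, had probe sets that differed in size of change. It read 587, 342, 474 and 488 on the first, a 2 h value 1.72-fold below that of 1 h, and 875, 875, 915 and 909 on the second, a range of 1.05-fold. Actr1a, the Arp1 protein of the dynactin filament, was above the floor at 1 h and 2 h, at 139 and 104, and below it later. Of the 9 probe sets, 5 were lowest at 2 h, against 26.7% of all, with a median over 8 genes of −0.09 at 2 h (−0.18 to −0.05 over alternatives) and of −0.03, 0.01 and 0.01 at 1, 4 and 6 h. The low values at 2 h fell on the array with the actin ratio of 2.70, whose part was not tested.

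Myosins stood highest at 2 h in 5 of 9 probe sets, against 28.7% of all. It was 4 of 9 with the values as deposited and 3 of 9 with arrays brought to a common median or quantile normalized. Myo5a, which moves cargo into dendritic spines, read 162, 245, 217 and 199, lowest at 1 h and 1.51-fold higher at 2 h. Its second probe set was below the floor on all arrays. Myo5b, with a related role in receptor recycling, was even at 1378, 1286, 1380 and 1235, and its second, dim probe set was above the floor at 2, 4 and 6 h, at 185, 131 and 142.

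The 3 probe sets of Myo6, the myosin that moves in the opposite direction along actin, had 3 courses. They read 468, 547, 386 and 480, then 191, 175, 176 and 162, then 598, 685, 620 and 807 at 1, 2, 4 and 6 h. Myo7a, best known from hair cells, read 482, 482, 304 and 453 and was 1.49-fold below the next lowest array at 4 h. Myo10, a filopodial myosin, read 212, 217, 161 and 145. Myo9a read 289, 356, 276 and 280, and Myo1d 148, 162, 187 and 145. Myo1c was above the floor at 4 h alone, at 265, at least 2.63-fold above its other times. Myo1f, known from leukocytes, read 163, 164 and 148 at 1, 2 and 4 h and was at least 1.47-fold lower than these at 6 h. Myo1e was below the floor throughout. The medians over 9 genes were −0.06, 0.25, 0.09 and −0.13 at 1, 2, 4 and 6 h. Over the alternatives the one at 2 h stayed between 0.13 and 0.27, while the others took both signs, at −0.12 to 0.05, −0.16 to 0.14 and −0.21 to 0.01. Set against 1 h alone, the myosin median at 2 h was 0.03. The 2 h array also had the highest actin and Gapdh ratios, and their part in the myosin values was not tested.

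Agreement between probe sets of 1 gene was limited. Of 22 genes with several member probe sets, 9 had at least 2 above the floor on all arrays. In 3 of these (Actn1, Tubb3 and Tubb5) the probe sets shared their highest time, and in 4 (Actb, Actn1, Dctn2 and Tubb5) their lowest. For Mapt, Myo6, Tuba1a and Tubb2a neither was shared.

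The pattern leaves out many partners of these proteins, and 106 of 135 such genes were on the array, with 149 probe sets. Of 105 above the floor on all arrays, 22 had a range of at least 1.5-fold, or 21.0%, against 27.9% of all probe sets. Their medians over 89 genes were −0.01, 0.02, −0.02 and 0.03 at 1, 2, 4 and 6 h, and −0.05, −0.06, 0.03 and 0.11 with arrays brought to a common median. At 1 h, 1 probe set stood apart above and 1 below, at 2 h 1 above and 2 below, at 4 h 1 below, and at 6 h none. The shares of all probe sets above and below were 0.574% and 0.931% at 1 h, 1.18% and 1.12% at 2 h, 0.202% and 1.01% at 4 h, and 0.326% and 1.16% at 6 h, so these counts were near those of the array. Set against 1 h, 3 of 108 were at least 1.5-fold higher and 6 lower at 2 h, where 5.59% and 4.84% of all were. At 4 h, 4 of 111 were higher and 6 lower, against 3.38% and 5.33% of all, and at 6 h 3 of 109 were higher and 5 lower, against 3.76% and 5.82%.

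Limk1, the kinase that inactivates cofilin, had the widest range among these partners. A probe set with the suffix r read 1441, 566, 300 and 1829 at 1, 2, 4 and 6 h, while its second probe set read 336, 349, 280 and 318. Dynlrb1, a dynein light chain, showed the same split, with 629, 267, 564 and 724 on a probe set with the suffix r and 1964, 1980, 2299 and 2709 on the other. Map4, a microtubule-binding protein, read 260, 171, 126 and 142 on 1 probe set and 1185, 1248, 1284 and 1224 on the brighter. Stmn3, of the stathmins that bind free tubulin, read 396, 685, 452 and 383 and, on the brighter, 5275, 4842, 4214 and 4724.

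Msn, which links actin to the membrane, read 266, 122, 289 and 250, and Nes, an intermediate filament gene of progenitors, read 113, 209, 186 and 171, with a second probe set below the floor. Among these partners, 2 probe sets had a one-way course with a span of at least 1.5-fold. The coronin Coro1c rose, at 693, 993, 1150 and 1172. The microtubule end-binding gene Mapre2 fell, at 1126, 1057, 769 and 692. Others ran one way with a smaller span, such as Stmn4 at 2870, 2676, 2362 and 1965.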

How the data were processed

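Total RNA of CA1 hippocampus was read on 4 arrays, 1 for each of 1, 2, 4 and 6 h after shock. The authors deposited 1 linear intensity per array for 12488 probe sets, already brought to a common level (trimmed mean 500.3 on each array, leaving out 2% at each end), as the values show. Which software made them, and any detection calls, is not given in the sources used here.

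Genes were named from the platform annotation: of 12422 probe sets other than the 66 controls, 10833 had 1 symbol, 396 several and 1193 none. The gene identifiers of all 107 members matched a RefSeq gene table, which changed 0 symbols. Arrays were scaled to 1 trimmed mean (factors 0.999 to 1.001), and printed intensities are scaled values before the floor. For medians, values below the floor were set to it, log2 was taken, and the probe set with the highest mean stood for a gene. Called members had to be above the floor on the arrays compared. The 6 array controls for beta-actin stayed out of the counts and medians over members.

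With 1 array per time no test was run, a trend over hours was not fitted, and precision is limited by the small number of arrays. Members with values on all arrays were named if apart, one-way, at the ends of their family's range, in a small family or with discordant probe sets, and most others were given too. The members and lists were chosen with earlier results of these data known. The steps were tested on simulated arrays. The analysis ran in Python 3.11.15 with pandas 2.3.3 and NumPy 2.4.6, and figures were drawn with matplotlib 3.10.9.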

Additional observations from a re-analysis of the deposited data

How the results depend on the processing

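No paired analysis was possible because each time has 1 array, and an array left out takes its time with it. The causes of the shifts given here were not tested. Upward and downward courses counted here are those with a span past the fold limit. With the floor at the 20th percentile, 6 member probe sets stood apart above and 5 below, 25 of 82 had a range past the limit, 10, 7 and 5 were higher and 2, 4 and 5 lower than 1 h at 2, 4 and 6 h, and 2 ran downward. With it at the 60th percentile, 0 stood apart, 0 were higher than 1 h at any time and 6 of 56 passed the range limit. At a 1.3-fold limit, 2 stood apart above and 8 below, 31 passed as a range, 6 and 5 were higher than 1 h at 4 and 6 h, 7, 5 and 3 were lower at 2, 4 and 6 h, and 1 ran upward. At a 2-fold limit, 0 stood apart, 0 ran downward, 2 passed as a range, 2, 1 and 0 were higher than 1 h and 0 lower. With the 73 plain probe sets alone, 0 stood apart, 1 was higher at 6 h than at 1 h, tubulins were lowest at 4 h in 5 of 7 and kinesins lowest at 2 h in 2 of 6. A common median, which moved 6 h by 0.12 on the log2 scale against 2 h, gave 2 members apart below, 2 lower at 2 h and 1 lower at 4 h than 1 h, 1 upward and 0 downward course, 5 of 18 tubulins lowest at 4 h, 1 of 7 neurofilament and MAP probe sets highest at 2 h and 3 of 9 myosins highest at 2 h. Quantile normalization gave 2 apart below, 2 lower at 2 h and 3 of 9 myosins. With 1 probe set per gene, 3 of 5 neurofilament and MAP genes were lowest at 1 h.

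Of 312 recomputed family medians, 23 moved by at least 0.1. Tubulins at 2 h read 0.18 with either other floor, −0.02 with the mean over probe sets and 0.25 with plain ones. Neurofilament and MAP genes at 1 h read −0.30 as a mean and −0.28 without the 6 h array, at 2 h 0.33 as a mean, and at 6 h −0.08 with the lower floor, −0.07 as a mean and −0.07 without the 4 h array. Kinesins read −0.10 at 1 h as a mean, 0.02 at 2 h with the lower floor and 0.14 at 6 h with the mean over probe sets. Dynein and dynactin read 0.07 at 1 h with plain probe sets. Myosins at 1 h read 0.05 without the 2 h array. At 2 h they read 0.14 with the higher floor, 0.13 as a mean and 0.14 without the 4 h array. At 4 h they read −0.16 with the higher floor, −0.06 with the mean over probe sets, −0.02 without the 1 h array and −0.05 without the 6 h array, and at 6 h 0.01 with the higher floor. Values near the floor of 100.8 limit what can be read from the dim members.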
